A study of Mus musculus with 10 samples.

Results

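The genes described here are 31 transcription factors of the endocrine pancreas, chosen by name as factors of beta, alpha and delta cells and of their progenitors. Every probe set whose platform annotation gave only 1 of these symbols was taken, which gave 72 probe sets of the 45037 on the array without controls. All 31 genes had at least 1 probe set. Transcript levels came from isolated pancreatic islets of 10 females killed at 5 weeks of age. There were 5 mice heterozygous for Men1, the gene of the tumour suppressor menin, and 5 wildtype littermates, and the labels give the same strain for both groups, C57 on a 129 background. The design of the Men1 allele was not given in the sources used here. About 100 islets of each mouse were pooled into 1 RNA sample for 1 array. Replicates are therefore different animals, and their number limits the precision. Every difference is the heterozygous minus the wildtype mean of the deposited log2 values, and means are given ± SD with n = 5 mice per genotype.

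Endocrine cells of the pancreas arise from epithelial progenitors. Pdx1 marks the pancreatic progenitor field, and a transient pulse of Neurog3 commits a cell to the endocrine fate, after which factors such as Neurod1, Insm1, Nkx2-2 and Isl1 act in the differentiating cells. Mature beta cells keep Pdx1, Nkx6-1 and Nkx2-2, alpha cells carry Irx1 and Irx2, and delta cells require Hhex. Factors of the Foxa, Gata, Onecut and Hnf families act earlier in the gut tube and its pancreatic buds, and several remain in use in adult islets or in the exocrine tissue around them.

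Hormone genes were high on all 10 arrays, with Ins2 between 16.19 and 16.36, Gcg between 16.23 and 16.50 and Sst between 12.91 and 13.88. Array medians lay between 3.28 and 3.40, and pairs of arrays had r = 0.987 to 0.995 over all probe sets without controls. The only probe set of Men1 above background averaged 6.89 ± 0.39 in wildtype and 6.42 ± 0.30 in heterozygous mice, a difference of -0.47 (SE 0.20). Its position relative to the altered part of the allele is not given, so it is no firm check of the labels. Heterozygous replicates 2 and 5 stood apart in markers of lymphocytes, whose mean log2 value over 5 measured genes was 7.46 and 6.86 there and 4.82 to 5.80 on the other arrays. Heterozygous replicate 2 also stood apart in intestinal epithelium markers, at 9.999 against 5.72 to 7.39, over the 3 of 11 listed genes above background. Acinar genes were high in every sample, at a mean of 14.76 ± 0.16 in wildtype and 14.65 ± 0.31 in heterozygous samples. Stromal genes were on average lower in heterozygous samples, at 9.02 ± 0.55 against 9.70 ± 0.35, and all 10 measured genes of that list had the lower mean there. In whole islets, fewer cells of a type and less RNA per cell cannot be told apart.

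A probe set was taken as above background if its log2 value exceeded 4 on at least 5 of the 10 arrays. By that measure 26 of the 31 factors were above background in these islet preparations, or 83.9%. The share was 57.9% of the 18193 genes on the array with a probe set of 1 symbol. A gene with more probe sets had more chances to be counted, which these shares do not take into account. The beta cell factors were all measured, 8 of 8. Nkx2-2, which keeps beta cells from taking on other endocrine fates, had a narrow range between mice, from 9.75 to 10.36. Neurod1, which drives endocrine differentiation and insulin transcription, ranged from 11.59 to 12.45, Pdx1 from 9.14 to 10.19, Nkx6-1 from 8.91 to 9.95 and Pax6 from 8.53 to 9.85. Probe sets differ in brightness, so these levels are not set against each other. Of the 3 alpha cell factors Irx1 and Irx2 were above background, while Pou3f4, known as Brn4, was not, with its brightest probe set between 2.47 and 2.55. Hhex, the delta cell factor, ranged from 7.82 to 8.68.

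Of the 11 progenitor and endocrine differentiation factors, 9 were above background. Insm1, a zinc finger factor of endocrine differentiation, ranged from 12.38 to 14.17 and St18, a relative of Myt1, from 9.74 to 10.79. Neurog3, whose protein is best known from fetal endocrine progenitors, was above 4 on all 10 arrays at 5 weeks in 1 of its 2 probe sets, between 4.005 and 5.77. Its other probe set lay between 1.86 and 1.92. Pax4, a paired-domain factor that favours the beta cell fate, lay between 2.29 and 2.71, and Nkx6-2 lay between 2.57 and 3.37, so neither was above background on any array. Of the 8 foregut and Fox, Gata, Onecut and Hnf factors, 6 were above background. Foxa1 was not, between 2.38 and 2.50, while its relatives Foxa2 and Foxa3 were, between 9.21 and 9.65 and between 7.13 and 7.86.

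**Figure D1:**
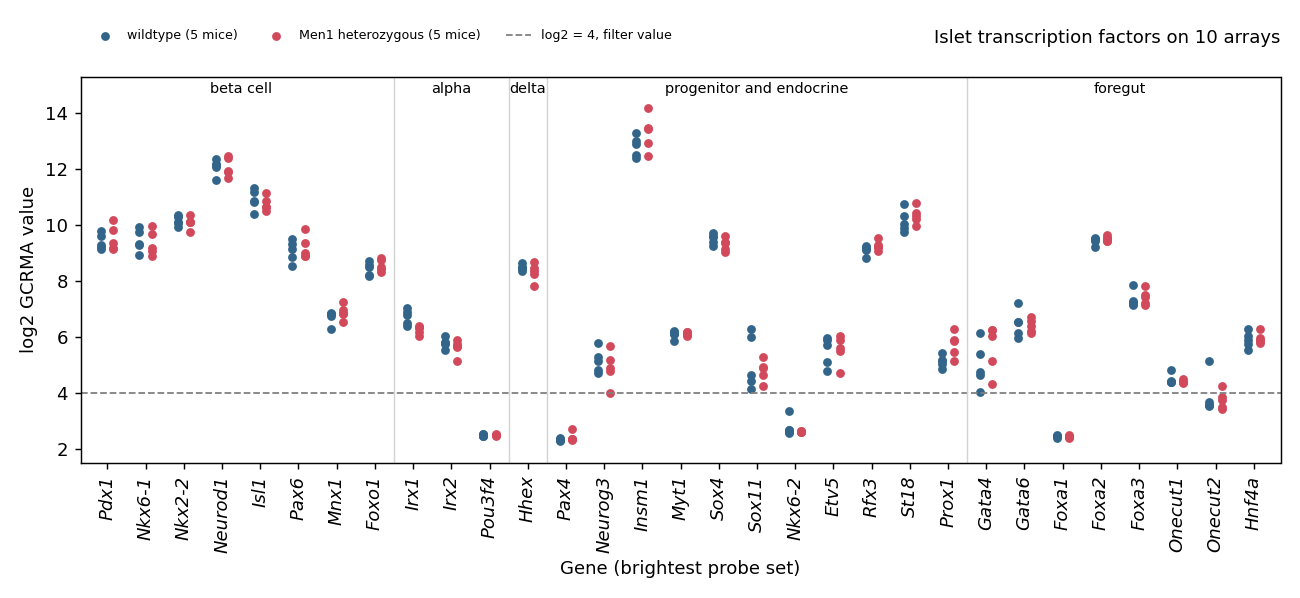
Deposited log2 GCRMA value (vertical axis) of the brightest probe set of each of the 31 factors (horizontal axis), with 1 point per array for the 5 wildtype and 5 heterozygous samples. 26 factors lie above the background line at 4 on at least 5 arrays, and Pax4, Pou3f4, Foxa1, Nkx6-2 and Onecut2 do not.

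Onecut2 was the only factor that crossed the level of 4 on some arrays and not on others. Its brightest probe set read 3.67, 3.55, 3.55, 5.13 and 3.55 in wildtype replicates 1 to 5 and 3.49, 3.85, 3.76, 4.26 and 3.42 in heterozygous replicates 1 to 5. Replicate 4 of each genotype was above 4 and the other 8 arrays were not, so the 2 high arrays were split between the groups. Its relative Onecut1, or Hnf6, a regulator of Neurog3 in the embryo, was close to the same level, at 4.37 to 4.49 on 9 arrays and 4.81 in wildtype replicate 4. At a stricter level of 5, Onecut1 and Sox11 were no longer counted and 24 factors remained above background.

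A named factor was often seen by only some of its probe sets. Of the 72 probe sets 38 were kept, and 31 of the remaining 34 exceeded 4 on no array. In 8 of the 26 measured genes only 1 of several probe sets was above background: Sox11 by 1 of 6, Etv5 and Prox1 by 1 of 3 each, and Neurog3, Myt1, Gata4, Onecut1 and Rfx3 by 1 of 2 each. Pax6, a paired-domain factor required in all islet endocrine lineages, was read by 2 of 5 probe sets and Sox4, which acts beside Neurog3 in endocrine precursors, by 3 of 8. Only 8 measured factors had a single probe set to begin with, so for 16 of the 26 the value rests on 1 probe set.

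No factor passed the adjusted threshold for genotype. With limma and Benjamini-Hochberg adjustment over all 18567 probe sets kept, 0 of the 38 member probe sets had an adjusted p under 0.05, and the lowest adjusted p among them was 0.9999. Of all 18567 probe sets 0 passed as well, or 0.0%, and the lowest adjusted p of all was 0.720. At an unadjusted p under 0.05 there were 2 member probe sets, those of Irx1 and Prox1, which is 5.26% against 4.09% of all probe sets kept. No member probe set had groups without overlap, against 0.7% of all. By 1 probe set per gene, 15 factors had the higher mean in heterozygous islets and 11 the lower. The median difference was 0.04, beside 0.01 over the 10538 genes tested, of which 54.4% were higher in heterozygous islets. The median size of the difference, whatever its sign, was 0.138 over the factors and 0.096 over all genes. The 95% interval of a factor's difference reached 0.20 to 1.004 to either side, with a median of 0.38 on the log2 scale, or 1.31-fold. These intervals are not adjusted for the number of probe sets.

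**Figure D2:**
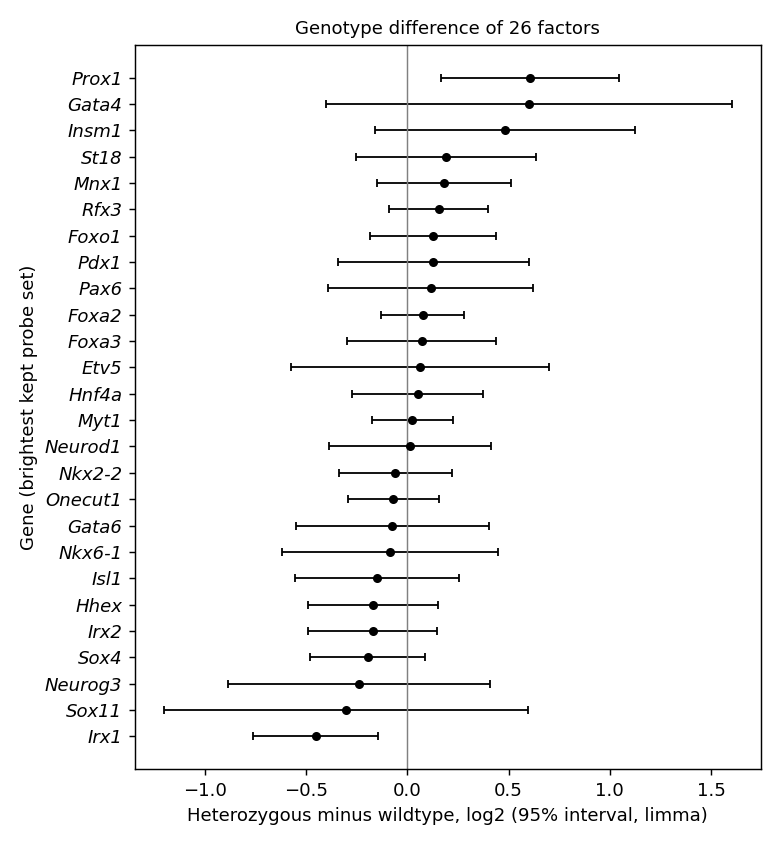
Heterozygous minus wildtype difference on the log2 scale (horizontal axis) with its 95% interval from limma for the brightest kept probe set of each of the 26 measured factors (vertical axis). The intervals of Irx1 and Prox1 do not reach 0, and no factor has an adjusted p under 0.05.

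Among the beta cell factors 5 had the higher and 3 the lower mean in heterozygous islets, and no unadjusted p was under 0.05. Pdx1 had 9.41 ± 0.27 in wildtype and 9.54 ± 0.45 in heterozygous mice. Neurod1 had 12.06 ± 0.28 and 12.07 ± 0.34 in its brightest probe set. Its second kept probe set had 10.03 ± 0.20 in wildtype and 10.24 ± 0.29 in heterozygous mice. That difference was 0.22 (SE 0.15, limma p = 0.181, exact permutation p = 0.214). By the brightest probe set of each beta cell factor, the smallest p belonged to Mnx1, a homeobox factor needed to hold the beta cell fate. Mnx1 read 6.74, 6.27, 6.80, 6.81 and 6.84 in wildtype replicates 1 to 5 and 6.95, 6.53, 6.84, 6.82 and 7.24 in heterozygous replicates 1 to 5. Replicate 2 was the lowest of each genotype, and 3 heterozygous values lay above all wildtype values. The difference was 0.18 (SE 0.15; limma p = 0.253, exact permutation p = 0.294). It was 0.08 without wildtype replicate 2 and 0.09 without heterozygous replicate 5. Foxo1, the insulin-responsive forkhead factor, differed by 0.13 (SE 0.14) and Isl1, a LIM-homeodomain factor of all islet endocrine cells, by -0.15 (SE 0.18).

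Both measured alpha cell factors had the lower mean in heterozygous islets. Irx1 read 7.05, 6.77, 6.37, 6.88 and 6.48 in wildtype replicates 1 to 5 and 6.17, 6.32, 6.39, 6.37 and 6.04 in heterozygous replicates 1 to 5. The groups overlapped only in that heterozygous replicate 3 lay just above wildtype replicate 3. Of the 5 heterozygous values 4 lay below every wildtype value and all 5 lay below the wildtype mean. The difference was -0.45 (SE 0.14), or 73.0% of wildtype with a 95% interval from 58.9% to 90.5%. Its unadjusted limma p was 0.00819, its exact two-sided permutation p was 0.0159, where the smallest possible is 0.00794, and its adjusted p was 0.9999. Without heterozygous replicates 2 and 5 the difference was -0.40. With the stromal list mean as a covariate it was -0.40 as well, at an unadjusted p of 0.0603. That list mean was itself lower in heterozygous samples, so this fit cannot fully separate stromal signal from genotype. Irx1 correlated with the stromal list mean at r = 0.556 over all arrays and at 0.158 after subtraction of group means. Its Iroquois relative Irx2 was not split by genotype in that way. Irx2 read 5.83, 6.05, 5.73, 5.77 and 5.55 in wildtype and 5.90, 5.15, 5.73, 5.63 and 5.66 in heterozygous replicates 1 to 5. Only heterozygous replicate 2 lay below the wildtype range, and the difference was -0.17 (SE 0.15; limma p = 0.263, exact permutation p = 0.317). Without heterozygous replicate 2 it was -0.05. The mean of the alpha cell effector list, with Gcg among its 4 measured genes, was 12.28 ± 0.08 in wildtype and 12.30 ± 0.10 in heterozygous islets.

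Hhex read 8.49, 8.36, 8.64, 8.47 and 8.45 in wildtype and 8.45, 8.25, 7.82, 8.68 and 8.36 in heterozygous replicates 1 to 5. The wildtype values were close together, while the heterozygous group held both the lowest value, in replicate 3, and the highest, in replicate 4. The difference was -0.17 (SE 0.15; limma p = 0.264, exact permutation p = 0.317). Without heterozygous replicate 3 it was -0.05, and without heterozygous replicate 4 it was -0.26. Hhex is also expressed in endothelial cells, and over the 10 arrays it correlated with the endothelial list mean at r = 0.718 (permutation p = 0.0166, adjusted 0.288 over 208 relations). Without the 2 arrays farthest from the median of that list, r was 0.267, and with 1 array left out it ranged from 0.484 to 0.824. The size of r thus depends on those 2 arrays, whose removal also narrows the range of the list.

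Among the progenitor factors 6 had the higher and 3 the lower mean in heterozygous islets. Prox1, a homeobox factor of pancreatic progenitors that also specifies lymphatic endothelium, had the largest difference of all factors. It read 4.85, 5.02, 5.42, 5.14 and 5.17 in wildtype and 5.88, 5.15, 6.30, 5.46 and 5.84 in heterozygous replicates 1 to 5. All 5 heterozygous values lay above the wildtype mean and 4 lay above every wildtype value, with heterozygous replicate 2 inside the wildtype range. The difference was 0.61 (SE 0.20), or 152% of wildtype with a 95% interval from 112% to 206%. The unadjusted limma p was 0.0114, the exact permutation p was 0.0238 and the adjusted p was 0.9999. With the stromal list mean, itself lower in heterozygous samples, as a covariate the difference was 0.41 at an unadjusted p of 0.133. That fit cannot fully separate stromal signal from genotype. Without heterozygous replicates 2 and 5 the difference was 0.76. Lymphatic endothelial markers lay the other way: their list mean was 7.02 ± 0.34 in wildtype and 6.01 ± 0.47 in heterozygous islets, and all 5 measured genes of that list had the lower mean there. The measured value of Prox1 rests on 1 of its 3 probe sets, since its other probe sets exceeded 4 on at most 1 array.

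Insm1 read 13.003, 12.49, 13.27, 12.38 and 12.90 in wildtype and 13.44, 12.47, 12.94, 13.45 and 14.17 in heterozygous replicates 1 to 5. The difference was 0.48 (SE 0.29; limma p = 0.126, exact permutation p = 0.151), and 3 of the 5 heterozygous values lay above all wildtype values. Leaving out 1 array moved it from 0.26, without heterozygous replicate 5, to 0.69, without heterozygous replicate 2. The second kept probe set of Insm1 differed by 0.14 (SE 0.23; limma p = 0.567, exact permutation p = 0.587), and the probe sets correlated at r = 0.568 (permutation p = 0.085, adjusted 0.119). Insm1 followed the acinar list inversely over the 10 arrays, at r = -0.874 (rho = -0.830, permutation p = 0.00183 for r and 0.00515 for rho, adjusted 0.0952 and 0.263 over 208 relations), and at -0.635 without the 2 arrays farthest from the median of that list. With the acinar list mean as a covariate its difference was 0.28. Sox4 read 9.38, 9.72, 9.59, 9.56 and 9.25 in wildtype and 9.40, 9.34, 9.04, 9.59 and 9.16 in heterozygous replicates 1 to 5. The groups overlapped over most of their range, and the difference was -0.20 (SE 0.13; limma p = 0.157, exact permutation p = 0.167). It was -0.13 without heterozygous replicate 3. With the stromal list mean as a covariate the difference of Sox4 was 0.05, the opposite sign. This fit, too, cannot fully separate stromal signal from genotype. Rfx3, a ciliogenic factor that also acts in beta cell maturation, read 9.12, 9.17, 9.18, 8.83 and 9.24 in wildtype and 9.52, 9.20, 9.27, 9.09 and 9.22 in heterozygous replicates 1 to 5. Replicate 4 was the lowest of each genotype, and 2 heterozygous values lay above all wildtype values, for a difference of 0.15 (SE 0.11; limma p = 0.194, exact permutation p = 0.190). It was 0.08 without wildtype replicate 4 and 0.09 without heterozygous replicate 1. By the brightest probe set the other progenitor factors differed by -0.30 (Sox11) to 0.19 (St18), with SE of 0.41 and 0.20. The second kept probe set of St18 differed by 0.41 (SE 0.27, limma p = 0.163, exact permutation p = 0.198).

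Among the foregut factors 4 had the higher and 2 the lower mean in heterozygous islets. Gata4, a zinc finger factor of early pancreatic epithelium that persists in acinar cells, varied most between mice of all members. It read 4.04, 6.15, 4.63, 5.39 and 4.76 in wildtype and 6.03, 6.26, 6.24, 5.13 and 4.32 in heterozygous replicates 1 to 5. Each group ran from near the background level to above 6, and the difference was 0.60 (SE 0.46; limma p = 0.214, exact permutation p = 0.270). Leaving out 1 array moved it from 0.36, without wildtype replicate 1, to 0.92, without heterozygous replicate 5. Gata4 correlated with the acinar list mean at r = 0.642 over the 10 arrays and at 0.816 after subtraction of group means. With that list mean as a covariate its difference was 0.90 at an unadjusted p of 0.0109 and an adjusted p of 0.794. Foxa2, Foxa3 and Hnf4a, which act together in liver and gut as well as in islets, differed by 0.08, 0.07 and 0.05, and Gata6 and Onecut1 by -0.07 each.

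The genes these factors act beside were looked at in the same fit. Of 24 further islet transcription factors, 15 were measured, 8 with the higher and 7 with the lower mean in heterozygous islets, and none had an adjusted p under 0.05. The smallest unadjusted p was that of Hes1, the Notch target that holds back Neurog3, with means of 7.59 ± 0.28 in wildtype and 7.02 ± 0.49 in heterozygous mice. Its difference was -0.57 (SE 0.23; limma p = 0.0295, exact permutation p = 0.0476). The next was Tshz1, at 0.27 (SE 0.18). Of the beta cell effector genes 12 were measured, 5 higher and 7 lower, with Kcnj11, a subunit of the ATP-sensitive potassium channel, at -0.15 (SE 0.20) and G6pc2, a glucose-6-phosphatase of beta cells, at -0.18 (SE 0.24). The alpha cell effectors were 2 higher and 2 lower, with Gcg at -0.08 (SE 0.08) and Gria3 at 0.24 (SE 0.18). Those of delta, PP and epsilon cells were also 2 higher and 2 lower, with Rbp4 at -0.15 (SE 0.19) and Ppy at 0.11 (SE 0.28). None of these effector genes had an adjusted p under 0.05 either.

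In 10 factors with more than 1 kept probe set, 14 pairs of probe sets of the same gene could be compared over the 10 arrays. Pearson's r had a median of 0.645, and 5 of the 14 pairs had a permutation p under 0.05 after Benjamini-Hochberg adjustment. These were the pairs of Pdx1 (r = 0.858, rho = 0.867, permutation p = 0.00061 and 0.00239, adjusted 0.00427 for r), Pax6 (r = 0.823, rho = 0.745), Isl1 (r = 0.776, rho = 0.806), St18 (r = 0.750, rho = 0.758) and the 2 dimmer probe sets of Sox4 (r = 0.916, rho = 0.855). The brightest probe set of Sox4, which stands for the gene in the other comparisons, correlated with those dimmer ones at only 0.509 and 0.599 (adjusted p = 0.166 and 0.102). It differed by -0.20 between genotypes, against -0.06 and -0.01 in the dimmer ones. The genotype difference had the same sign in 12 of the 14 pairs, the 2 exceptions both in Foxo1. The brightest Foxo1 probe set differed by 0.13 between genotypes and the next by -0.13, and the latter correlated with the dimmest kept probe set at r = 0.00168. The probe sets of Gata6, a relative of Gata4, ran against each other at r = -0.338 (permutation p = 0.324), the dimmer of them with a mean near 4.22, close to background. The count of 5 pairs was 3 without wildtype replicate 2, 2 without wildtype replicate 3, 0 without heterozygous replicate 5 and 3 without heterozygous replicates 2 and 5. After subtraction of group means it was 8.

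**Figure D3:**
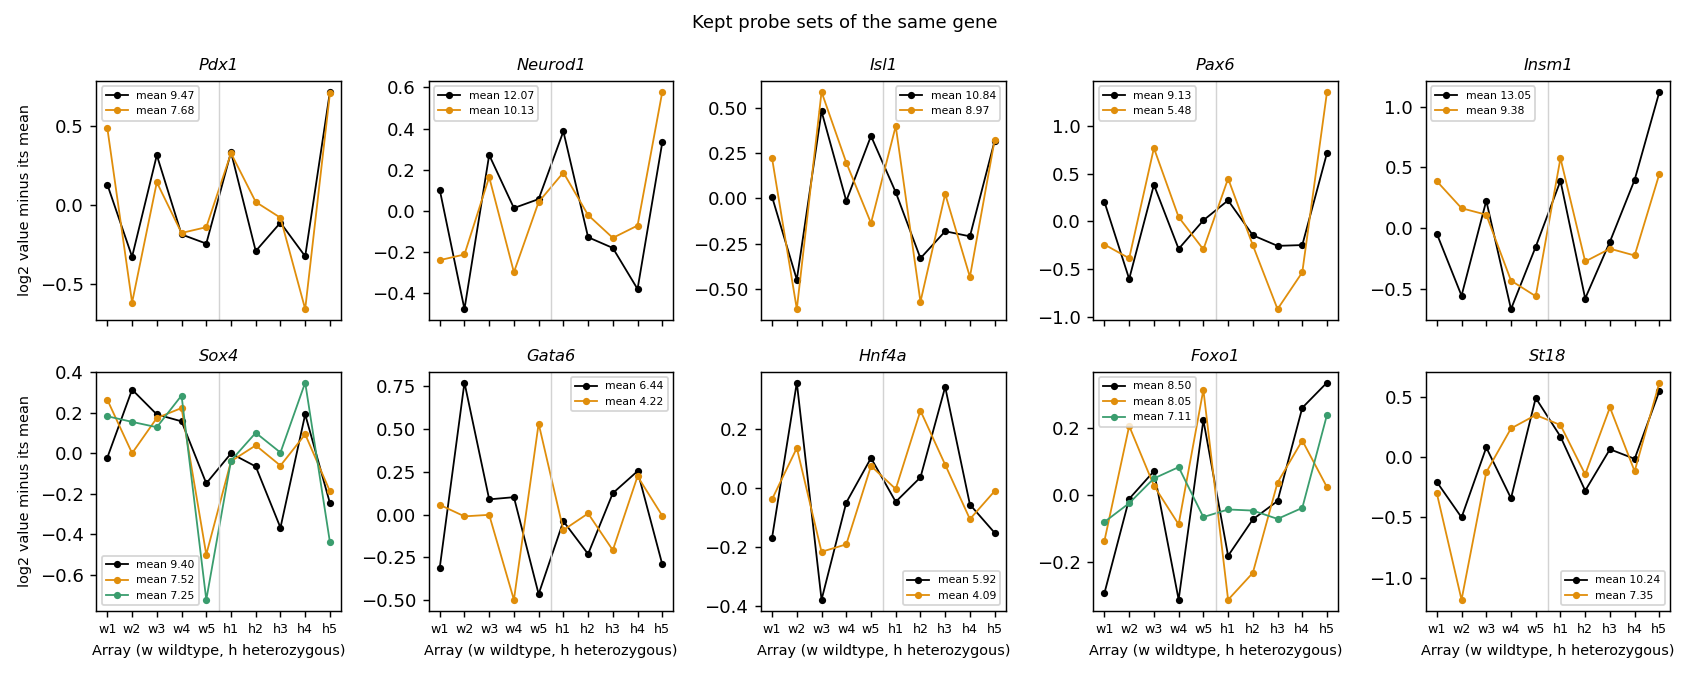
Log2 value minus the probe set's mean over the 10 arrays (vertical axis) on each array (horizontal axis), 1 line per kept probe set, for the 10 factors with more than 1 kept probe set. The lines of Pdx1 run together at r = 0.858, while those of Gata6 do not, at r = -0.338.

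The factors also varied between mice of the same genotype, and several of them varied together. Over the 325 pairs of the 26 measured factors, 184 correlations were positive and 141 negative, with a median r of 0.071. A correlation of at least 0.8 was found for 10 pairs, or 3.08%, against 0.954% of all pairs of kept probe sets, and none was at or below -0.8, against 0.549%. The pairs share genes and so are not independent of each other. Among the 28 pairs of the 8 beta cell factors r ranged from -0.554 to 0.913 with a median of 0.655, and 25 were positive. The number of pairs with r of at least 0.8 was 19 without wildtype replicate 5, 16 without heterozygous replicate 4 and 11 without heterozygous replicates 2 and 5.

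**Figure D4:**
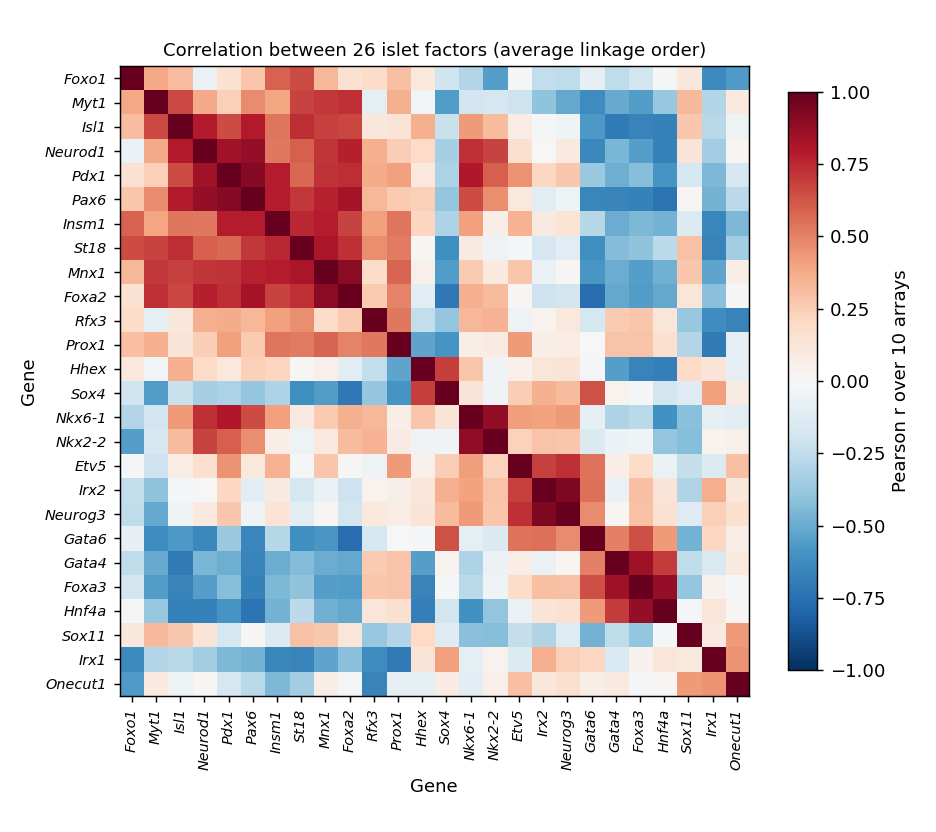
Pearson's r over the 10 arrays (colour, from -1 to 1) between the brightest kept probe sets of the 26 measured factors, ordered on both axes by average linkage. Pdx1, Pax6 and Neurod1 stand beside each other with r between 0.839 and 0.913, and Irx2 stands beside Neurog3 at 0.934.

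After Benjamini-Hochberg adjustment over the 325 pairs, 3 pairs had a permutation p for r under 0.05, and none did by Spearman's rho. Irx2 and Neurog3 correlated at r = 0.934 and rho = 0.903 (permutation p = 0.00015 and 0.00075, adjusted p for r = 0.0244). Heterozygous replicate 2 was the lowest array in both genes, at 5.15 and 4.005, and wildtype replicate 2 the highest, at 6.05 and 5.77. Without the 2 arrays farthest from the median of Irx2, r was 0.791. Pdx1 and Pax6 correlated at r = 0.913 and rho = 0.806 (permutation p = 0.00038 and 0.00745, adjusted p for r = 0.0412). Heterozygous replicate 5 was the highest array in both, at 10.19 and 9.85, and wildtype replicate 2 the lowest, at 9.14 and 8.53. Without the 2 arrays farthest from the median of Pdx1, r was 0.834. Nkx6-1 and Nkx2-2, NK-class homeobox factors that share beta cells as a site of action, correlated at r = 0.883 and rho = 0.879 (permutation p = 0.00011 and 0.00162, adjusted p for r = 0.0244). Heterozygous replicate 1 was the highest array in both, at 9.95 and 10.36, and heterozygous replicate 4 the lowest, at 8.91 and 9.75. Without the 2 arrays farthest from the median of Nkx6-1, r was 0.773. Subtraction of group means left the 3 correlations at 0.937, 0.911 and 0.882 in the same order.

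The number of pairs past the adjusted threshold depended on single arrays. It was 0 without wildtype replicate 1, wildtype replicate 3 or heterozygous replicate 1, and 1 without wildtype replicate 2. It was 5 without wildtype replicate 5 or heterozygous replicate 2 and 7 without heterozygous replicate 3. Without heterozygous replicates 2 and 5 together it was 5. In that setting r was 0.909 for Irx2 and Neurog3, 0.929 for Nkx6-1 and Nkx2-2 and 0.862 for Pdx1 and Pax6, and the last no longer passed. A further quantile normalization left 0 pairs and median centring gave 11.

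**Figure D5:**
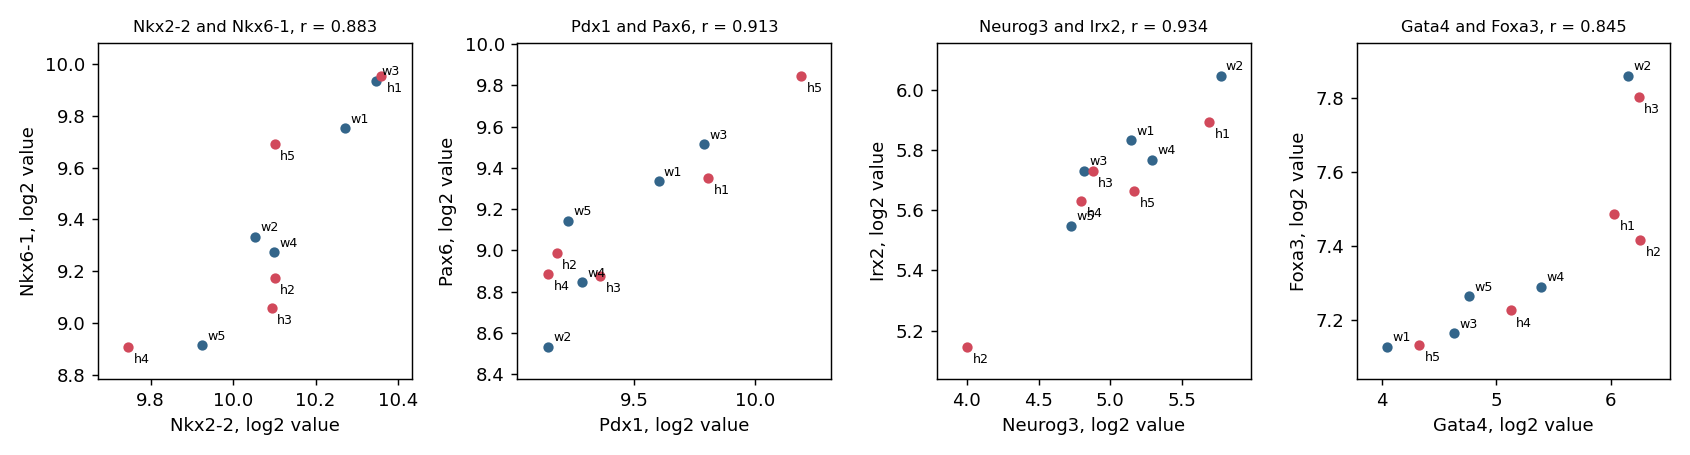
Log2 values of pairs of factors, 1 point per array, wildtype and heterozygous in different colours and numbered by replicate. The 3 pairs with an adjusted p under 0.05 had r = 0.883 (the pair with Nkx6-1), 0.934 (with Neurog3) and 0.913 (with Pdx1). Any other pair drawn did not pass the adjustment. The points follow a rising line in each panel, with mice of both genotypes along it.

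The other 7 pairs with r of at least 0.8 did not pass the adjustment. They joined Neurod1 to Pax6 (0.877) and to Pdx1 (0.839), Foxa2 to Mnx1 (0.903) and to Pax6 (0.835), Foxa3 to Hnf4a (0.878) and to Gata4 (0.845), and Mnx1 to St18 (0.813), with permutation p from 0.00096 to 0.00318 and adjusted p from 0.063 to 0.103. Their rho lay between 0.600 and 0.903. Without the 2 arrays farthest from the median, Foxa2 and Mnx1 stood at 0.468, Foxa3 and Hnf4a at 0.562, Mnx1 and St18 at 0.567 and Pax6 and Foxa2 at 0.574. The size of these correlations thus depends on those arrays, whose removal also narrows the range. The negative correlations with the smallest p were those of Sox4 with Foxa2 (r = -0.712), Pax6 with Hnf4a (-0.735), Gata6 with Foxa2 (-0.765) and Irx1 with Prox1 (-0.704), with permutation p from 0.0151 to 0.0229 and adjusted p from 0.212 to 0.226. Their rho lay between -0.709 and -0.564. The last joins the factors with the smallest p for genotype, and r was -0.378 after subtraction of group means. Irx1 and Irx2 correlated at only 0.363 (permutation p = 0.312).

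The 250 bases before the RefSeq start of the 6 genes in the 3 called pairs are shown. These pairs were chosen because only they had an adjusted p for r under 0.05, and none passed by rho. The bases are given 5′ to 3′ on the strand of the gene in build GRCm38.p6, in lower case with matches in capitals. Both strands were searched for letters of core promoter elements, namely the TATA box as TATAAA, the box named CCAAT and the GC box as GGGCGG. They were also searched for the core letters that bind factor classes found among the members: an E box of the basic helix-loop-helix class as CAGATG, a homeodomain core as TAATTA and a forkhead core as TGTTTAC.
Pdx1, chr5:147269847-147270096, plus strand: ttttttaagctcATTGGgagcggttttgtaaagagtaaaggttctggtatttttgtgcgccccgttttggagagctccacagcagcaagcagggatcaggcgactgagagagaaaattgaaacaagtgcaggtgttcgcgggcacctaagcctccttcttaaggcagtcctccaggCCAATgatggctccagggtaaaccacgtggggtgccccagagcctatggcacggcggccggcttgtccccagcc
Pax6, chr2:105668646-105668895, plus strand: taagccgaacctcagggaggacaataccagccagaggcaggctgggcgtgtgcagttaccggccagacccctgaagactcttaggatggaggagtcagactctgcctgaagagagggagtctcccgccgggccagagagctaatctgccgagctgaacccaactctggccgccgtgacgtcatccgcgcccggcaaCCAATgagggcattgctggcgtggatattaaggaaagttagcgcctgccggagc
Pax6, second start, chr2:105682213-105682462, plus strand: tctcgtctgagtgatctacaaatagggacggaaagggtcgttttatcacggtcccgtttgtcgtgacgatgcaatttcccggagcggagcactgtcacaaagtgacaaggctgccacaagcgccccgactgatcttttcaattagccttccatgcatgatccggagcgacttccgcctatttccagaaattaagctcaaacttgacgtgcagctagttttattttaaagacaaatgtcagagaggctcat
Nkx6-1, chr5:101664712-101664961, minus strand: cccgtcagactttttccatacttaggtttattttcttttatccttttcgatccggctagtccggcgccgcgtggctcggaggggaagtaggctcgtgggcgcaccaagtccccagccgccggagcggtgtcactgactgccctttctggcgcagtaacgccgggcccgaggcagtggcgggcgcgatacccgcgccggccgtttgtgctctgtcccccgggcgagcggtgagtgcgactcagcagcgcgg
Nkx2-2, chr2:147186403-147186652, minus strand: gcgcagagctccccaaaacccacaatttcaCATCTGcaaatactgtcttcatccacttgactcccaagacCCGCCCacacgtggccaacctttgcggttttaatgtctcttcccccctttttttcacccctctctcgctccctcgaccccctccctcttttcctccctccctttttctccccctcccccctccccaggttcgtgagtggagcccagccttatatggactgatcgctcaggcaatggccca
Irx2, chr13:72628570-72628819, plus strand: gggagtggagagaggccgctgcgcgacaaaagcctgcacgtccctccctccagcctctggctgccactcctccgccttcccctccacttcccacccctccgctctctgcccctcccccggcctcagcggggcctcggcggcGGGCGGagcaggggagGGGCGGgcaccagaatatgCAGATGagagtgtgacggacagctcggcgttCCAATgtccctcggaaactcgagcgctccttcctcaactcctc
Neurog3, chr10:62132840-62133089, plus strand: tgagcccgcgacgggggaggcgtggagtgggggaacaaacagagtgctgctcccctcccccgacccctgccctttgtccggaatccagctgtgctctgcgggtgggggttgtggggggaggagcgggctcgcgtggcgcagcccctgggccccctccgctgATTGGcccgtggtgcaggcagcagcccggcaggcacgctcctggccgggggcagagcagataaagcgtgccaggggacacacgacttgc

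The window of Pdx1 held CCAAT boxes at -238 and -74, counted from the start of transcription, the first window of Pax6 held 1 at -54, and those of Irx2 and Neurog3 held 1 each at -43 and -89. GC boxes stood at -109 and -93 in Irx2 and at -180 in Nkx2-2. The windows of Nkx6-1 and of the second start of Pax6 held none of the searched letters, and none of the 7 windows held the TATA box, the homeodomain core or the forkhead core. The E box was in the windows of Nkx2-2 at -220 and Irx2 at -74. RefSeq gave 32 such windows for 24 of the 31 factors. The CCAAT box was in 68.8% of these 32 windows and in 33.8% of all 32851 windows of the same length, and the GC box was in 53.1% and 32.7%. The TATA box was in 9.38% and 12.4%, the E box in 12.5% and 14.4%, the homeodomain core in 3.12% and 4.84%, and the forkhead core in 9.38% and 3.17%. No test was made of these shares, and a match describes only the letters in the window.

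The factors were also set against the mean levels of islet effector genes over the 10 arrays, a comparison added after the data were seen. Of 78 relations, between 26 factors and 3 lists, 7 had an adjusted permutation p for r under 0.05, and 3 did by Spearman's rho. The same share over all genes was not worked out, so whether these counts are particular to the factors was not tested. The beta cell effector mean correlated with Pax6 (r = 0.921, rho = 0.879, adjusted p for r = 0.0113), Isl1 (r = 0.902, rho = 0.915, adjusted 0.0138), Neurod1 (r = 0.883, rho = 0.903, adjusted 0.017) and Pdx1 (r = 0.858, rho = 0.855, adjusted 0.017). The first 3 of these also passed by rho. Without the 2 arrays farthest from the median of the list these stood at 0.912, 0.787, 0.846 and 0.908. After subtraction of group means they were 0.939, 0.924, 0.885 and 0.881, so the relation did not rest on a difference between the group means. Both genotypes were pooled for this, and r was not worked out in each genotype alone. Hnf4a, a nuclear receptor of liver, gut and islets, ran the other way, at r = -0.837 with the beta cell list and -0.925 with the list of delta, PP and epsilon cells, and -0.611 and -0.851 without the 2 arrays. Pax6 correlated with the latter list at 0.811. The unadjusted permutation p of the 7 relations lay between 0.0002 and 0.00439. No factor had an adjusted p under 0.05 with the alpha cell list. The 7 relations became 4 without wildtype replicate 1, 0 without wildtype replicate 2, 1 without heterozygous replicates 2 and 5, and 11 after subtraction of group means.

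Markers of the other cells in the preparations were set against the same factors. Of 208 relations between the 26 factors and 8 lists of other cell types, 23 had an unadjusted permutation p under 0.05. After adjustment 0 passed, with a lowest adjusted permutation p of 0.0952. The same share over all genes was not worked out here either. Sox4 was higher in samples with more duct (r = 0.882), stromal (0.870) and endothelial (0.819) signal, and Foxa2 lower with duct signal (-0.789). In the same order rho was 0.818, 0.806, 0.770 and -0.745. Pdx1 and Pax6 were lower with acinar signal, at r = -0.778 and -0.731, and Irx2 with lymphocyte signal, at -0.778. For these rho was only -0.552, -0.539 and -0.442, and with 1 array left out r was as weak as -0.504, -0.460 and -0.448. The r of Irx2 was -0.543 without the 2 arrays farthest from the median of the lymphocyte list. The difference between 3′ and 5′ signal of control probe sets, a measure of RNA length, was 3.21 to 3.37 in wildtype and 3.23 to 3.59 in heterozygous samples. Heterozygous replicates 3 and 4 stood apart at 3.56 and 3.59, with every other array at 3.37 or less. Of the 26 factors, Nkx6-1 (r = -0.681, permutation p = 0.0251) and Nkx2-2 (r = -0.659, permutation p = 0.0421) followed it at an unadjusted p under 0.05, and none passed the adjustment. These stood at -0.605 and -0.555 without the 2 arrays farthest from its median. The correlation between Nkx6-1 and Nkx2-2 was 0.916 without heterozygous replicate 3 and 0.896 without heterozygous replicate 4. The part of these cell types and of RNA length in the correlations between factors was not tested.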

How the data were processed

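Islet RNA of 10 mice, 5 per genotype, was amplified over 2 cycles from 100 ng and run on 1 array each, per the labels' protocols. The deposited log2 values, 1 per probe set and array, were made by the authors with GCRMA, per the submitters' processing notes. This method models background from probe sequence and equalizes array distributions, so values of dim probe sets crowd together at the low end. Its version was not given in the sources used here. That the scale is log2 follows from the values themselves, which ran from 0.654 to 17.58.

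Groups came from the sample labels. Probe sets were named through the platform annotation, in which 34958 of 45101 carry 1 symbol, and all 31 member symbols equal those of RefSeq by gene identifier. After leaving out 64 control probe sets, 18567 with a log2 value above 4 on at least 5 arrays were fitted in limma (version 3.58.1, R 4.3.3; lmFit, eBayes), with two-sided p-values and Benjamini-Hochberg adjustment over all of them. A gene was represented by its kept probe set with the highest mean, or by its brightest where none was kept. The fit was also run on simulated arrays with independent noise and known changes larger than most differences seen here. That run does not show whether differences of the size seen here could be found. Correlations were tested with 100000 permutations, and differences of named genes also with the exact permutation test.

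Values on every array were given for members with an unadjusted p under 0.05 (filled to 8 by p), for those above background on some arrays only, and for the smallest p in each role. Named pairs were those past the adjusted threshold and 4 negative ones, and 2 genes per islet list were named. Further genes and pairs were picked with their values in view. The members and all lists were chosen with earlier results of these data known.

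Alternatives were other filters, normalizations, variance priors, weights per array, a block on the replicate number, list means as covariates, the mean of all kept probe sets of a gene, and leaving out arrays. Promoter windows came from RefSeq, GRCm38.p6, not from the deposited values. Python 3.11.15 with matplotlib 3.10.9 drew the figures.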

Additional observations from a re-analysis of the deposited data

Results flagged for a closer look

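In 4 of 52 groups of 5 arrays, for the 26 measured factors in each genotype, the highest or lowest array stood apart from the others by more than 0.71 of the group's range. Chance alone puts about 1 in 20 such groups past that limit. Foxa3 was 7.86 in wildtype replicate 2, with the next value of its group at 7.29. Mnx1 was 6.27 in wildtype replicate 2, with the next at 6.74. Onecut1 was 4.81 in wildtype replicate 4, with the next at 4.43. Onecut1 was also 4.49 in heterozygous replicate 3, with the next at 4.40, and all its values lay close to the background level.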

How the results depend on the processing

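No member probe set, and none of all probe sets kept, had an adjusted p under 0.05 under any alternative run, the replicate block among them, where the count of members was 0 and that at an unadjusted p under 0.05 was 2. Deviations of same-numbered samples from their group means correlated at -0.284 to 0.108, with 2 of 5 over 0.1. Those of differently numbered samples correlated at -0.383 to 0.359, and 1 of 5 wildtype samples correlated best with its own number. With only 5 same-numbered pairs, this cannot decide whether such samples shared a litter or a day. The 2 members under an unadjusted p of 0.05 became 0 with the stromal mean as a covariate and 3 with the acinar mean, and 2 to 3 when 1 array was left out. The stromal mean was itself lower in heterozygous samples, so fits with it cannot fully separate stromal signal from genotype. The count of members without overlap, 0, was 1 under median centring (Irx1), 1 without heterozygous replicates 2 and 5 (Prox1), and 0 to 1 when 1 array was left out. The median difference over members ranged from -0.04 to 0.07 then. Of 352 values of 16 named members under alternatives, 330 kept their sign and 22 did not, none with an adjusted p under 0.05. Neurod1 was -0.0016 after quantile normalization, -0.0021 after median centring, -0.047 with the acinar, -0.23 with the stromal and -0.012 with the lymphocyte mean as a covariate, and -0.052 without heterozygous replicates 2 and 5. Pdx1 was -0.00045 with the acinar and -0.054 with the stromal mean, Pax6 was -0.015 and -0.11 with these and -0.036 without heterozygous replicates 2 and 5, and with the stromal mean Hhex was 0.034 and Sox4 0.050. Leaving out 1 array moved Neurod1 between -0.11 and 0.11, Pax6 between -0.049 and 0.23, Nkx6-1 between -0.23 and 0.039, Nkx2-2 between -0.13 and 0.024 and Pdx1 between -0.036 and 0.23. The cause was not tested.

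The 3 correlated pairs past the adjusted threshold became 0 after quantile normalization, 11 after median centring, 10 after subtraction of group means, 5 without heterozygous replicates 2 and 5, and 0 to 7 when 1 array was left out. The 10 pairs with r of at least 0.8 became 16 under median centring, 18 after subtraction of group means and 10 to 19 when 1 array was left out. After quantile normalization r was 0.811 for Nkx6-1 and Nkx2-2, 0.905 for Irx2 and Neurog3 and 0.895 for Pdx1 and Pax6, and without heterozygous replicates 2 and 5 it was 0.862 for the last. None of these 4 values passed. When 1 array was left out, these pairs ranged over 0.849 to 0.918, 0.875 to 0.953 and 0.844 to 0.944. The 5 pairs of probe sets that agreed became 8 after subtraction of group means, 3 without heterozygous replicates 2 and 5, and 0 to 6 when 1 array was left out. The 7 relations with islet effector lists became 11, 1 and 0 to 7 in the same settings. Signal near background limits what can be read for Onecut1, Onecut2, Sox11, Neurog3 and Gata4.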
